A study of Macaca fascicularis with 12 samples.

Results

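The breakdown of haem and the handling of the iron it releases were followed in monkey iliac arteries through 9 genes: HMOX1, BLVRA, BLVRB, FTL, FTH1, SLC40A1, SLC11A1, TFRC and CP. The genes were chosen with earlier results of these data known. A probe was assigned to a gene where the platform annotation gave that gene as the probe's single symbol, and no measured value entered that assignment. This gave 11 probes for 7 of the 9 genes, out of 53877 probes tested. HMOX1, BLVRA and BLVRB had 1 probe each, and SLC40A1, SLC11A1, TFRC and CP had 2 each. The ferritin subunit genes have no value here: the annotation used lists FTL only on a probe shared with PMF1, and names FTH1 on none.

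The animals were 12 female cynomolgus monkeys aged above 20 years, all fed high fat for 8 years and all without ovaries for 4 years, so that no group was intact or on a plain diet. Each gave 1 piece of left iliac artery, hybridized to 1 single-dye array of human probes, and was placed by the measured area of its plaque in a small (0 to 0.113 mm2, n = 4), medium (0.30 to 0.542 mm2, n = 5) or large (0.61 to 1.003 mm2, n = 3) group. In small replicates 2 and 4 no plaque was found, and their area was taken as 0. Replicates were separate animals, and no other treatment is recorded.

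The values are probe intensities scaled by the authors so that each array's median lay at 1.004 to 1.008, and between 53832 and 53867 probes had a value on an array. An intensity of 1 is thus the level of a middling probe on the same array. A human probe can bind monkey transcripts less well, so results compare each probe between animals and not with other probes. As a rough check of the tissue only, the arrays carried the smooth muscle genes ACTA2 and MYH11 at mean log2 intensities of 8.38 and 8.88 on their brightest probes and the endothelial gene PECAM1 at 4.60, against a median of -0.003 over all probes. Small replicate 4 and medium replicate 5 bear identity numbers far from those of the other animals, and values without both are given where they alter a call of the 9 genes, the related pathway genes or the macrophage markers. Markers of other cell types were fitted with all 12 animals alone.

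Haem oxygenase, the product of HMOX1, opens the haem ring and sets free iron, carbon monoxide and biliverdin, which the biliverdin reductases BLVRA and BLVRB turn into bilirubin. The iron is stored in ferritin, built from FTL and FTH1 subunits, or leaves the cell through ferroportin, encoded by SLC40A1, after which ceruloplasmin, encoded by CP, oxidizes it for loading onto transferrin. TFRC encodes the receptor that brings iron-laden transferrin into the cell, and SLC11A1 a metal pump of the phagosome membrane. In atherosclerotic plaques, macrophages that engulf red cells or take up haemoglobin are a known site of haem breakdown.

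HMOX1 was the member that rose. Its intensity was 0.622, 0.480, 0.546 and 0.418 in small replicates 1 to 4. It was 2.90, 2.01, 1.94, 1.62 and 1.88 in medium replicates 1 to 5, and 2.86, 1.49 and 1.86 in large replicates 1 to 3. The lowest of the 8 arteries with medium or large plaque thus stood above the highest of the 4 with small plaque, a separation that 2.62% of all probes also showed. The rise was 1.99 ± 0.23 log2 units in medium against small arteries (standard error, SE, of the fit; n = 5 and 4), or 3.97-fold, with a limma adjusted p of 0.000893. In large against small arteries it was 1.97 ± 0.26 (n = 3 and 4), or 3.90-fold, with a limma adjusted p of 0.00426.

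Among all 53877 probes HMOX1 ranked 79th by p in medium against small and 73rd in large against small. Both calls held under each of 24 alternatives, which included the omission of any single animal and of both animals with distant identity numbers. On the scale of log2 of the value plus 0.5, which shrinks the differences of dim probes, they were 1.32 and 1.31. Within the small group the 2 arteries without plaque had the lowest HMOX1 values and the artery of 0.113 mm2 the highest. These are whole pieces of artery wall, so that more cells of a type and more RNA per cell cannot be told apart, here or in any result that follows.

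**Figure D1:**
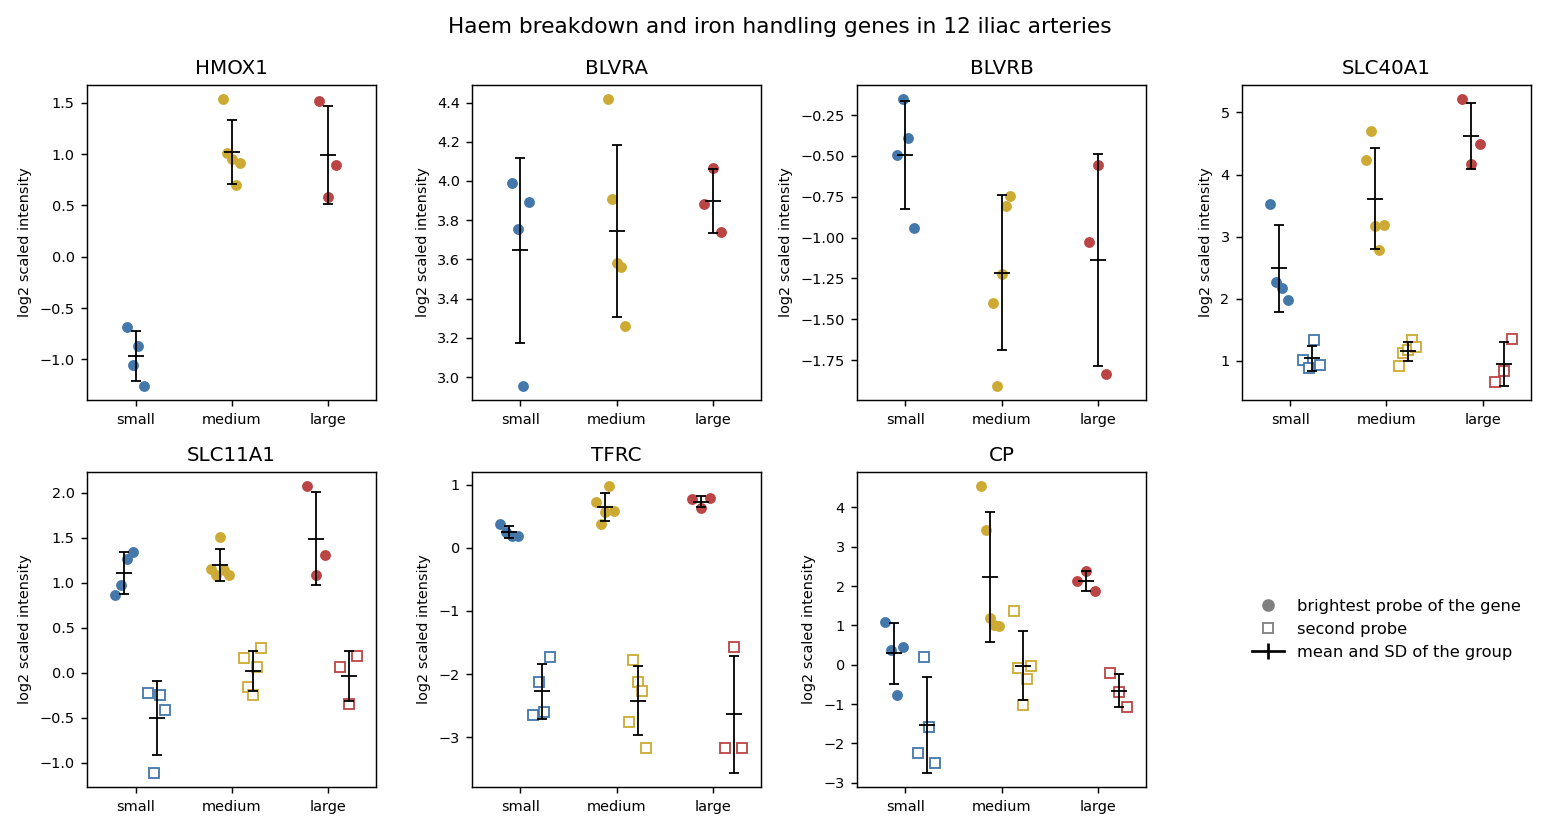
Log2 scaled intensity (y axis) of each measured gene in every artery, by plaque group (x axis: small, n = 4; medium, n = 5; large, n = 3). Filled circles are the brightest probe of a gene, open squares its second probe, and black bars the group mean and SD. HMOX1 lies below 0 in all 4 small arteries and above 0 in the other 8, whereas the groups overlap for BLVRA, BLVRB and SLC11A1.

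The next enzymes of the route did not pass the test. BLVRA, the major biliverdin reductase of adult tissue, had intensities of 15.9, 13.5, 7.76 and 14.8 in small replicates 1 to 4, of 21.4, 14.99, 11.96, 11.8 and 9.59 in medium replicates 1 to 5, and of 14.7, 16.7 and 13.4 in large replicates 1 to 3. All 3 groups overlapped, with the highest and the second lowest value both in medium arteries. The difference was 0.10 ± 0.26 log2 units in medium against small (95% interval -0.47 to 0.67) and 0.25 ± 0.30 in large against small (-0.40 to 0.90). These intervals leave out a change of the size seen in HMOX1, but the difference between the changes of the 2 genes was not itself tested.

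BLVRB, which reduces biliverdin IX-beta and flavins and is abundant in red cells, was the only measured member whose brightest probe had lower means in both comparisons against small. Its probe was dim, at 0.7098, 0.899, 0.764 and 0.520 in small replicates 1 to 4, 0.379, 0.267, 0.429, 0.573 and 0.598 in medium replicates 1 to 5 and 0.492, 0.680 and 0.280 in large replicates 1 to 3. Of the small arteries, replicate 4 lay among the medium and large ones. The difference was -0.72 ± 0.30 in medium against small (limma adjusted p 0.227) and -0.64 ± 0.34 in large against small (limma adjusted p 0.383).

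SLC40A1, the iron exporter ferroportin, came nearest to a call after HMOX1. On its brighter probe the intensity was 11.6, 4.82, 4.53 and 3.96 in small replicates 1 to 4. It was 18.8, 25.9, 8.96, 6.86 and 9.14 in medium replicates 1 to 5 and 37.1, 18.0 and 22.4 in large replicates 1 to 3. Every large artery stood above every small one, while small replicate 1, the one of 0.113 mm2, lay above 3 of the 5 medium arteries. The difference was 2.13 ± 0.49 in large against small (limma adjusted p 0.0611), 1.12 ± 0.43 in medium against small (limma adjusted p 0.193) and 1.01 ± 0.47 in large against medium (limma adjusted p 0.962).

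The large against small difference of SLC40A1 passed under 7 of 24 alternatives. Among these were the omissions of 2 single animals: its adjusted p was 0.0255 without small replicate 1, where the difference was 2.48, and 0.0484 without medium replicate 2. The second probe of SLC40A1 gave another picture. It read 2.02, 1.85, 2.52 and 1.91 in small, 1.88, 2.18, 2.26, 2.52 and 2.32 in medium and 1.59, 1.79 and 2.54 in large arteries, with overlap of all groups and differences of 0.11 ± 0.18 and -0.09 ± 0.20 from small. A statement about ferroportin therefore rests on 1 of its 2 probes.

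CP, the copper ferroxidase ceruloplasmin, had the widest spread. Its brighter probe read 2.13, 1.30, 0.590 and 1.36 in small, 23.4, 10.7, 2.27, 2.00 and 1.96 in medium and 4.41, 5.22 and 3.64 in large arteries. Medium replicates 1 and 2 stood far above the other 3 medium arteries, 2 of which lay below the highest small one. The means differed by 1.94 ± 0.70 in medium against small (limma adjusted p 0.165) and by 1.84 ± 0.80 in large against small (limma adjusted p 0.282).

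Of the medium arteries, replicates 1 and 2 also had the highest 2 values of SLC40A1 and of HMOX1. The dimmer probe of CP was highest in medium replicate 1 as well, at 2.596, but its second highest value, 1.14, was in small replicate 2, an artery without plaque. It differed by 1.51 ± 0.55 and 0.87 ± 0.63 from small in medium and large arteries. Ceruloplasmin is made mainly by the liver. The 4 measured hepatocyte markers, among them ALB, had no call in either comparison. Their summed intensities were 3.08 to 3.78 in small, 2.66 to 3.17 in medium and 2.72 to 3.56 in large arteries. FGB gave most of each sum, at 2.01 to 2.65. ALB, APOA1 and TTR were dim, at no more than 0.907, and the source of the CP signal was not tested.

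TFRC, the transferrin receptor, had a small and even difference on its brighter probe. The values were 1.30, 1.19, 1.14 and 1.14 in small, 1.65, 1.30, 1.49, 1.97 and 1.51 in medium and 1.71, 1.55 and 1.73 in large arteries. Large and small did not overlap, and medium and small did so only through medium replicate 2 and small replicate 1, which nearly coincided. The difference was 0.40 ± 0.15 in medium against small (limma adjusted p 0.183) and 0.48 ± 0.17 in large against small (limma adjusted p 0.197). The other TFRC probe lay near the lower limit of measurement, 0.111, with 2 of 3 large arteries and 1 of 5 medium ones at or under it, and the lowest of the small ones at 0.160. Its differences from small had the opposite sign, at -0.15 ± 0.38 in medium and -0.36 ± 0.43 in large arteries, and did not pass.

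SLC11A1, the phagosomal metal pump also called NRAMP1, read 1.82, 1.96, 2.40 and 2.53 in small, 2.22, 2.12, 2.85, 2.20 and 2.12 in medium and 4.21, 2.12 and 2.48 in large arteries on its brighter probe. The groups overlapped, and large replicate 1, the artery with the largest plaque, was the highest of all 12. The differences were 0.09 ± 0.21 in medium against small and 0.38 ± 0.24 in large against small. The dimmer probe differed by 0.52 ± 0.21 (limma adjusted p 0.218) and 0.47 ± 0.24 (limma adjusted p 0.372), with small replicate 2 the lowest at 0.464.

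**Figure D2:**
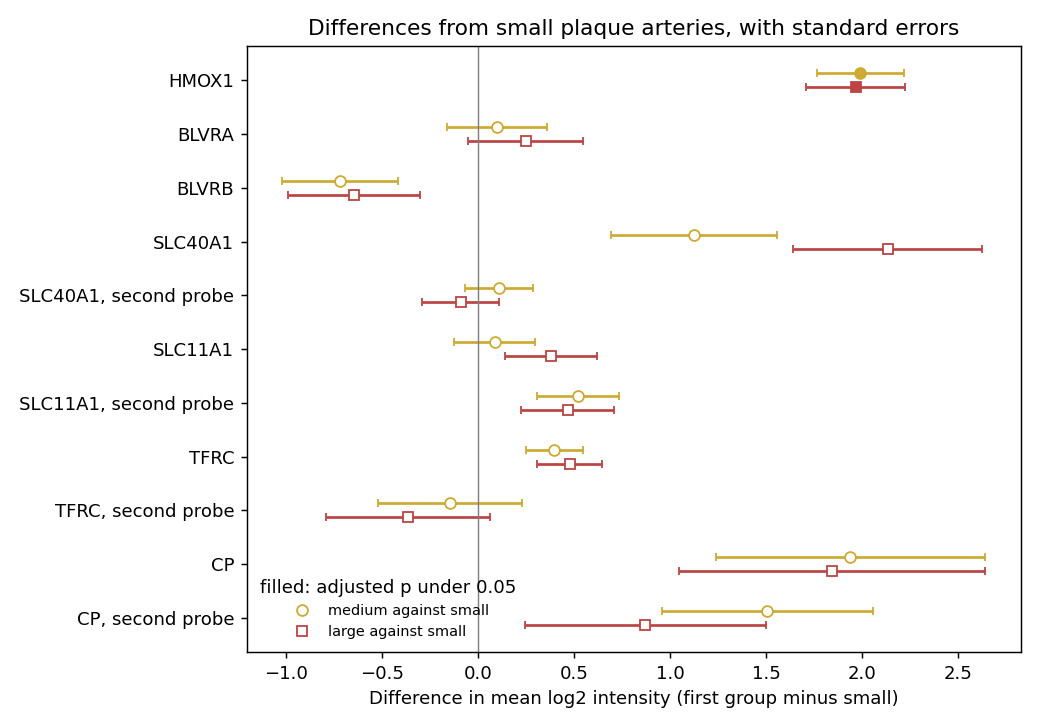
Difference in mean log2 intensity from the small group (x axis) with its SE for the 11 probes (y axis), in medium (circles, n = 5) and large (squares, n = 3) against small arteries (n = 4). Filled symbols have a limma adjusted p under 0.05; HMOX1, at 1.99 and 1.97, is filled in both comparisons and no other probe is.

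Counted by gene on the brighter probe, 1 of 7 passed in medium against small, where 3.14% of all tested probes were called, and 1 of 7 in large against small, where 1.15% were. Both counts are HMOX1 alone, and a single gene of 7 says nothing about the route as a whole. The median difference over the 7 genes was 0.40 and 0.48, beside -0.09 and -0.10 over all tested probes. In large against small, 4 of 11 member probes stood above the small arteries without overlap, beside 6% of all probes. They were the probe of HMOX1 and the brighter probes of SLC40A1, TFRC and CP. The second probes of SLC40A1, TFRC and CP overlapped with the small arteries, at differences of -0.09, -0.36 and 0.87. In medium against small HMOX1 alone did, beside 3.95%. No member probe lay wholly below the small arteries, beside 4.34% and 8.54% of all probes in medium and large. The 2 comparisons share the 4 small arteries and are not independent of each other.

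No member passed in large against medium, where 0% of all probes were called by limma. Nor did any member probe separate these 2 groups, beside 2.54% of all probes higher and 2.97% lower without overlap. At an unadjusted p under 0.05 there were 0 of 11 member probes and 2713 of 53877 probes in all. HMOX1 differed by -0.03 ± 0.25, with a 95% interval from -0.56 to 0.51 that leaves out a further change as large as the one seen against small. For SLC40A1 the interval ran from -0.02 to 2.03, an interval too wide to tell no change from a further rise.

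Plaque area was then taken as a number. HMOX1 had a slope of 2.52 ± 0.51 log2 units per mm2 over the 12 arteries (limma adjusted p 0.0482), where 0.583% of all probes were called. That call stood just inside the threshold and was lost under 16 of 26 alternatives, among them the omission of any small or large artery or of medium replicate 3, 4 or 5, at adjusted p-values from 0.0582 to 0.153, and of both animals of distant identity number, at 0.188. Within the 8 arteries of medium and large plaque the slope was 0.31 ± 0.55 (limma adjusted p 1.00), and the lowest HMOX1 value among them, 1.49, belonged to the artery of 0.61 mm2.

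The slope of SLC40A1 was 2.47 ± 0.60 per mm2 (limma adjusted p 0.0726), and 1.71 ± 1.09 within the 8 arteries of medium and large plaque. Without medium replicate 2, a bright artery of 0.30 mm2, its adjusted p over the remaining animals was 0.0387 and the slope 2.61. In the 3 large arteries SLC40A1 followed area, with 18.0 at 0.61 mm2, 22.4 at 0.873 mm2 and 37.1 at 1.003 mm2. In the 5 medium ones the highest value belonged to the smallest plaque and the lowest to the largest. No other member had a slope that passed, with TFRC at 0.66 ± 0.19 (limma adjusted p 0.124) and BLVRB at -0.76 ± 0.44 (limma adjusted p 0.429).

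**Figure D3:**
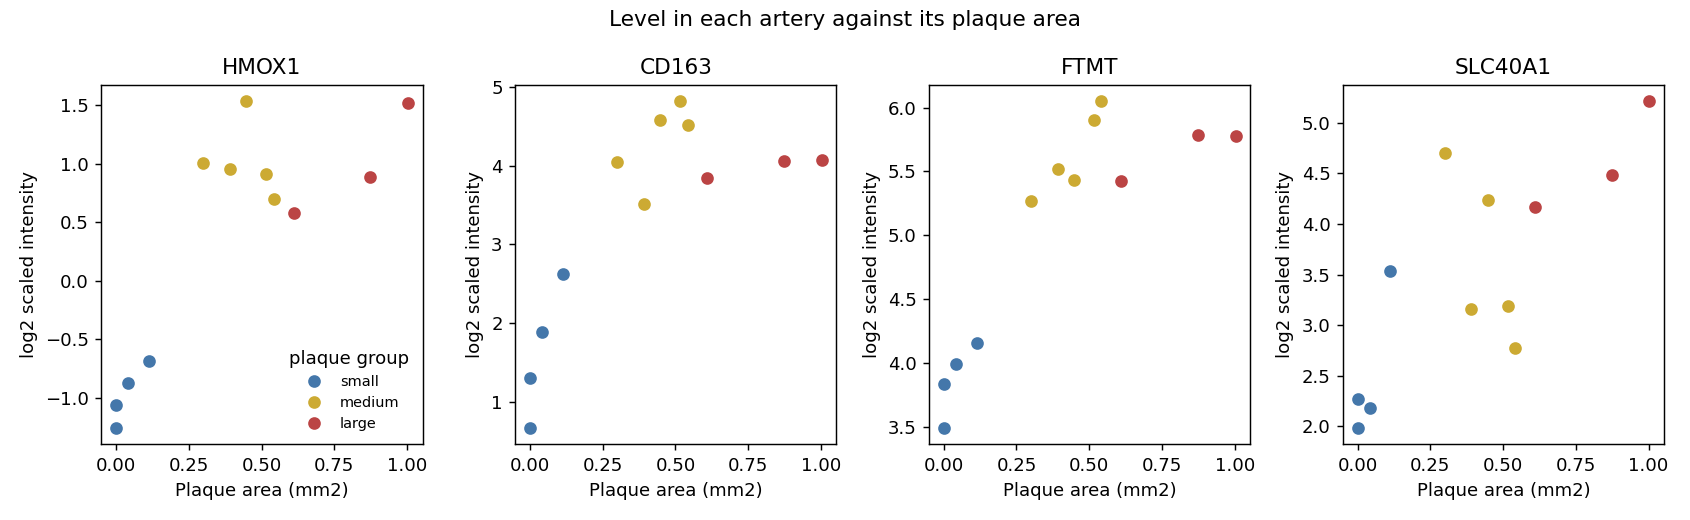
Log2 scaled intensity (y axis) of HMOX1, CD163, FTMT and SLC40A1 on their brightest probes against plaque area in mm2 (x axis), 1 point per artery (small n = 4, medium n = 5, large n = 3). HMOX1 steps up between 0.113 and 0.30 mm2 and has no called slope among the 8 larger plaques, while SLC40A1 in small replicate 1, of 0.113 mm2, exceeds 3 of the 5 medium arteries.

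Other genes of haem and iron metabolism were then read from 10 lists, of which 54 genes had a single-symbol probe with values on all 12 arrays. The lists too were chosen with earlier results of these data known, so their counts are a description only. In medium against small 5 of the 54 rose and 0 fell, beside 1.97% of all probes called higher and 1.17% called lower. In large against small 3 rose and 0 fell, beside 0.948% and 0.197%. The medians over the 54 were 0.08 and 0.12. Those that rose were CD163, HMOX2, LCN2, FTMT and NCOA4, with CD163, LCN2 and FTMT in both comparisons.

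CD163, the macrophage receptor for haemoglobin bound to haptoglobin, lies upstream of haem oxygenase. Its intensity was 6.18, 1.59, 3.695 and 2.47 in small, 24.0, 16.5, 11.5, 22.9 and 28.2 in medium and 16.8, 14.4 and 16.7 in large arteries, with no overlap between small and the rest. It rose by 2.68 ± 0.36 in medium arteries (limma adjusted p 0.00262) and by 2.37 ± 0.41 in large ones (limma adjusted p 0.0189). The latter call was lost without large replicate 1 (0.105), without large replicate 3 (0.0959), without both animals of distant identity number (0.0612), and with the 2 groups compared fitted alone (0.0551). LRP1, the haemopexin receptor, at -0.46 ± 0.34, and SLC48A1, the haem transporter of the phagolysosome, at -0.22 ± 0.25 in medium against small, did not pass. The LRP1 probe was dim, with 1 array at or under the lower limit.

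HMOX2, the constitutive haem oxygenase, rose in medium arteries by 1.17 ± 0.18 (limma adjusted p 0.00514), or 2.25-fold, and by 0.55 with log2 of the value plus 0.5. Its dim probe read 0.327, 0.266, 0.358 and 0.248 in small, 0.597, 0.591, 0.658, 0.842 and 0.682 in medium and 0.687, 0.572 and 0.470 in large arteries, and small lay below all others. In large against small the difference of 0.94 ± 0.20 missed the threshold narrowly (limma adjusted p 0.0508), and it passed without small replicate 1 (0.0447), small replicate 3 (0.0419) or medium replicate 4 (0.0492). FLVCR2, a membrane transporter, differed by 1.15 ± 0.51 in medium against small and did not pass, on a dim probe with 2 arrays at or under the lower limit.

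In the iron storage list FTMT, mitochondrial ferritin, rose by 1.77 ± 0.20 in medium (limma adjusted p 0.00102) and 1.79 ± 0.23 in large arteries (limma adjusted p 0.00426). The probe read 17.8, 11.2, 15.9 and 14.3 in small, 43.2, 38.5, 45.9, 66.3 and 59.7 in medium and 54.9, 42.9 and 55.1 in large arteries, with every small artery below the other 8. Both calls held under all 24 alternatives. FTMT is a gene of the same family as FTH1 with a similar coding sequence, and whether its probe also binds FTH1 transcripts was not tested.

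NCOA4, the receptor that carries ferritin to the lysosome for breakdown, rose by 1.00 ± 0.24 in medium arteries (limma adjusted p 0.0443). It read 10.5, 7.03, 6.03 and 13.1 in small, 21.0, 16.9, 14.4, 22.3 and 14.3 in medium and 17.9, 17.4 and 15.04 in large arteries. Although these groups did not overlap, the call was lost under 13 of 24 alternatives, among them the omission of any of the 12 animals except small replicate 4, at adjusted p-values from 0.052 to 0.12. In large against small NCOA4 differed by 0.94 ± 0.27 (limma adjusted p 0.12). The iron chaperones PCBP1 and PCBP2 did not pass.

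Of the iron uptake genes LCN2, lipocalin 2, a secreted carrier of iron-binding siderophores, rose by 2.65 ± 0.26 in medium (limma adjusted p 0.000424) and 1.71 ± 0.30 in large arteries (limma adjusted p 0.0198). On its brighter probe it read 0.700, 0.585, 0.597 and 0.515 in small, 2.602, 3.01, 2.96, 6.81 and 4.62 in medium and 2.03, 2.20 and 1.66 in large arteries, small lying below all others. With log2 of the value plus 0.5 the medium difference was 1.96. The large against small call was lost without small replicate 2 (0.0585), large replicate 1 (0.109), large replicate 2 (0.0577) or large replicate 3 (0.0713), and without both animals of distant identity number (0.0648). The dimmer LCN2 probe did not pass, at -0.65 ± 0.99 in medium against small, with large replicate 3 far above the rest at 9.06. LCN2 is also a protein of neutrophil granules, and of 4 measured neutrophil markers none was called, with S100A8 at 0.70 ± 0.86 in medium against small. S100A8 read 22.0 in small replicate 1 and 0.799 to 1.18 in the other small arteries. MPO and S100A12 were dim, at no more than 0.840, and the part of neutrophils in the LCN2 rise was not tested.

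STEAP4, a metal reductase, at 1.97 ± 0.50 (limma adjusted p 0.0534) and SLC11A2, the endosomal iron transporter, at 0.83 ± 0.29 (limma adjusted p 0.144) came next in that list in medium against small, on the brighter of 2 probes each. The second probes gave -0.17 ± 0.24 and 0.16 ± 0.51. None of 7 measured genes of haem synthesis passed in either comparison, with UROD at 0.48 ± 0.16 and UROS at -0.55 ± 0.32 in medium against small. None of 5 genes of hepcidin control did, with HAMP, the hepcidin gene, at -0.68 ± 0.37 on a dim probe and NEO1 at -0.23 ± 0.15. HEPH, a membrane ferroxidase related to CP, stood at -0.52 ± 0.30, on a dim probe with 2 arrays at or under the lower limit.

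Both measured genes of the cellular iron sensors had positive differences without a call, ACO1, iron regulatory protein 1, at 0.79 ± 0.25 and FBXL5, which marks the other regulatory protein for degradation, at 1.66 ± 0.67 in medium against small. Of 6 mitochondrial iron genes none passed, with ISCU at -0.48 ± 0.22 and BOLA3 at 0.27 ± 0.21. HMOX1 is a textbook target of the transcription factor NRF2 and is held down by BACH1. Of 10 measured genes of that list 0 passed in either comparison by limma, and 4 and 6 of them had positive differences in medium and large against small. GCLC and GCLM, the subunits of the rate-limiting enzyme of glutathione synthesis, differed by 1.67 ± 0.45 (limma adjusted p 0.0707) and 0.49 ± 0.14 (limma adjusted p 0.0922) in medium against small, and BACH1 by 1.07 ± 0.37, while TXNRD1, SRXN1 and NQO1, other NRF2 targets, were at -0.19, -0.37 and -0.08. The NQO1 probe read only 0.0515 to 0.307, with 4 arrays at or under the lower limit, so its difference says little.

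**Figure D4:**
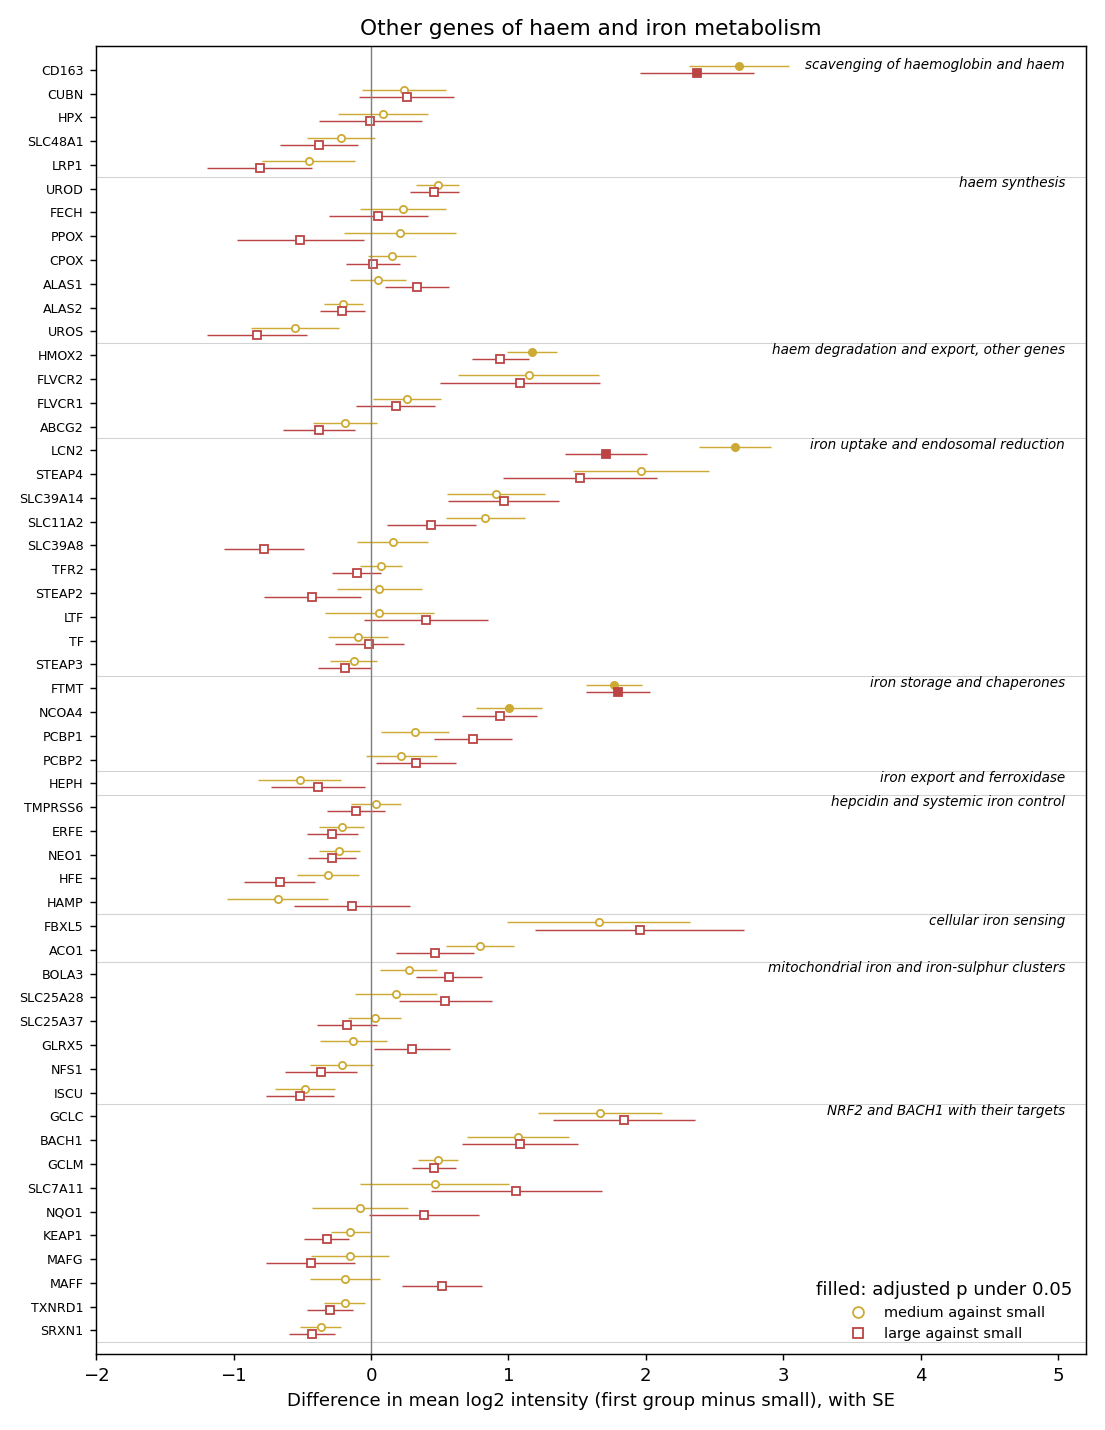
Difference in mean log2 intensity from the small group (x axis) with its SE for 54 other genes of haem and iron metabolism (y axis), grouped by list, in medium (circles) and large (squares) against small arteries. Filled symbols have a limma adjusted p under 0.05: 5 circles (CD163, HMOX2, LCN2, FTMT, NCOA4) and 3 squares (CD163, LCN2, FTMT), all to the right of 0.

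Of 10 measured macrophage markers 5 rose in medium arteries, TYROBP by 3.11 ± 0.29, C1QA by 2.39 ± 0.29, LYZ by 4.28 ± 0.53, CSF1R by 2.17 ± 0.37 and CD14 by 2.36 ± 0.53, and 4 of these, all but CSF1R, rose in large ones. The second probe of CSF1R rose in both, by 2.90 ± 0.42 and 2.58 ± 0.47. The calls of TYROBP and LYZ held under all 24 alternatives in both comparisons. CD14 lost its call under 8 of 24 in medium and 6 of 24 in large arteries, with adjusted p-values up to 0.0965 (without small replicate 2) and 0.137 (without large replicate 1), and of 0.0764 and 0.0639 without both animals of distant identity number. With log2 of the value plus 0.5 the CD14 difference was 1.46 in medium arteries. C1QA in large arteries lost its call without large replicate 1 (0.0624), without large replicate 3 (0.076) and with the 2 groups compared fitted alone (0.0541), and CSF1R in medium arteries without both animals of distant identity number (0.0575). CD68, at -0.44 ± 0.45 and -0.66 ± 0.51, and C1QB, at -0.29 ± 0.41 and -0.11 ± 0.47, did not pass and had negative differences. The C1QB probe was dim, at 0.187 to 0.812. MSR1, at 3.22 ± 1.05 and 4.29 ± 1.19, and MRC1, at 1.59 ± 0.55 and 1.63 ± 0.62, did not pass either but had positive differences. So did ITGAM, at 0.82 ± 0.43 and 0.07 ± 0.49. The summed intensity of the 10 ran from 69.3 to 129 in small, 267 to 539 in medium and 287 to 437 in large arteries, and only ITGAM was at the lower limit on any array. Of 5 measured T cell markers CD27 rose in medium arteries, by 1.66 ± 0.38, and none was called in large ones, with summed intensities of 7.19 to 25.4 in small, 19.3 to 35.4 in medium and 14.9 to 27.1 in large. Of 8 endothelial markers, each on its brightest probe, ESAM fell in medium arteries, by 1.41 ± 0.28, and none was called in large ones. Their sums were 161 to 228 in small, 72.8 to 120 in medium and 91.5 to 126 in large arteries. ESAM was the brightest of them, at 121 to 182 in small, 36.6 to 83.9 in medium and 57.4 to 93.0 in large. On its brightest probe PECAM1 differed by -0.10 ± 0.16 in medium and -0.06 ± 0.19 in large against small. Its dimmest probe was higher by 1.21 ± 0.24 in medium arteries. Relative to its SE that difference exceeds the called fall of ESAM, so this probe passed too. That probe read 0.205 to 0.447 in small and 0.611 to 0.953 in the rest. The part of any of these cells in the differences of HMOX1, CD163 and the other genes above was not tested.

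Of 7 contractile smooth muscle markers 2 fell in medium arteries, MYLK by 1.61 and SMTN by 2.39, and MYLK fell by 1.48 in large ones. The other 5 did not pass. The list had summed intensities of 1398 to 2202 in small, 665 to 1234 in medium and 857 to 1304 in large. MYLK and SMTN each had a second probe that did not pass. Of the red cell markers HBD, AHSP and SLC4A1 were measured on all 12 arrays and EPB42 on 11, and none was called. EPB42 differed by -0.47 ± 0.19 in medium (limma adjusted p 0.222) and -0.63 ± 0.21 in large against small arteries (limma adjusted p 0.173). The summed intensity of the former 3 was 7.19 to 16.6 in small, 5.51 to 10.8 in medium and 6.60 to 9.04 in large arteries. AHSP gave most of this sum, at 15.3 in small replicate 3 and 4.615 to 9.48 in the other arteries. HBD lay near the lower limit throughout, at no more than 0.374. The main haemoglobin genes are not analysed here, as no probe named 1 of them alone.

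The genes whose pattern over the 12 arrays was most like that of HMOX1, among 11227 genes with a probe brighter than the median, were PAQR8, a membrane progestin receptor (r = 0.977), CD86, a costimulatory molecule of antigen-presenting cells (r = 0.974), and HVCN1, the proton channel of phagocytes (r = 0.971). The arrays share the step between small and the rest, which sets much of these values. After the group means were taken out the r was 0.797, 0.689 and 0.798. All 3 were also high in medium replicate 1 and large replicate 1, the 2 arteries with the highest HMOX1. They are given as a description of pattern.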

How the data were processed

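Total RNA of 12 iliac arteries had been amplified to biotinylated cRNA and hybridized to CodeLink whole human arrays, per the labels' protocols. The deposited table holds intensity per probe on a linear scale, which the authors had brought to an array median near 1, as its values show. Of all values 0.472% lie below 0. The image software, background method and scaling formula used: not given in the sources used here.

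A probe was tested where every group had a value from at least 2 animals (53877 probes). A floor of 0.111, the 5th percentile of positive intensities, was applied before log2 and touched 5.45% of values. limma 3.58.1 in R 4.3.3 (lmFit with 3 group means over all 12 arrays, eBayes) gave two-sided p-values, with Benjamini-Hochberg adjustment across the whole set of tested probes and calls at 0.05. A second fit took plaque area in mm2. A gene is represented by its brightest complete probe. All 9 member symbols occur in the macaque annotation T2T-MFA8v1.1, used for names only. Precision is limited by there being 12 arrays. Alternatives tried were other floors, a pseudocount, quantile normalization, bright or complete probes only, the probe of smallest p, an intensity trend, array weights, a replicate block, fits of fewer groups, the omission of animals and other scales of area.

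The members and lists were chosen with earlier results of these data known. Named were all members, the called genes of each list or else the 2 of smallest p, and for HMOX1 the 3 genes of highest r. Other genes named from the lists (LRP1, SLC48A1, FLVCR2, STEAP4, SLC11A2, PCBP1, PCBP2, TXNRD1, SRXN1, NQO1, SLC7A11, BACH1, S100A8, S100A12, MPO, CSF3R, CD68, C1QB, MSR1, MRC1, ITGAM, PECAM1, FGB, APOA1, TTR, AHSP, EPB42) were chosen after their values were seen. Lists are described by counts and medians, with no list test.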

Additional observations from a re-analysis of the deposited data

Results flagged for a closer look

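Within the groups of 4 and 5 arteries, 22 sets of values of the 11 probes were examined for a single value far from the others, on the log2 scale. By Dixon's criterion at 95%, medium replicate 3 stood apart in SLC11A1 on the brighter probe, with an intensity of 2.85 against 2.12 to 2.22 in the other 4 medium arteries, a gap of 0.847 of the range. Chance gives about 1 such case in 20 sets.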

How the results depend on the processing

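The count of 1 member called in medium against small, and of 0 in large against medium, stayed as it was under all 24 alternatives. In large against small it was 2, with SLC40A1 added, under the floor at the 10th percentile, log2 of the value plus 0.5, bright probes only, an intensity trend and array weights, and ran from 1 to 2 with 1 animal left out. For the slope it was 0 under the floor at the 1st percentile, array weights, medium and large arteries only, the replicate block, rank of area and without both animals of distant identity number; it was 2 with log2 of the value plus 0.5, an intensity trend or the square root of area, and 3, TFRC included, with bright probes only; it ran from 0 to 2 with 1 animal left out. Replicates were separate animals, so their numbers were not taken to pair them. Same-numbered arteries of different groups correlated at -0.159 to 0.217 in their deviations from the group means. Arteries of different number were not correlated, so this range has nothing to be set against. The replicate block changed no other count of members. Under it the slope of HMOX1 was 2.41, and the call of LCN2 in large against small was lost at an adjusted p of 0.0523 by limma, as was that of CD14 at 0.0548.

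Uncalled values near 0 changed sign. HMOX1 in large against medium was 0.00967 under quantile normalization and 0.0121 with array weights, and ran from -0.29 to 0.18 with 1 animal left out. TFRC there was -0.22 on its probe of smallest p, CP was 0.0617 with array weights and ran from -0.41 to 0.49, and BLVRB ran from -0.22 to 0.42. BLVRA in medium against small was -0.0304 with array weights and ran from -0.13 to 0.22. In medium and large arteries only, the slopes of BLVRA, BLVRB and CP were -0.00391, 0.22 and -1.12, and that of BLVRA ran from -0.0746 to 0.29 with 1 animal left out. BLVRB and HMOX2 had no value among bright probes only. Over all probes the calls in large against small numbered 617, but 112 without large replicate 3 and 132 without large replicate 1.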
